A study of Rattus norvegicus with 24 samples.

Results

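Expressed unassigned transcript clusters are stretches of RNA that the Affymetrix rat transcriptome array measures but that its annotation counts neither as protein coding nor as noncoding genes. The members were chosen by their control signal: a cluster was taken when its annotation group was unassigned and its mean log2 signal over the control arrays lay above that of bioB, a bacterial RNA spiked into the hybridization, whose mean there was 9.27. The rule found 2809 clusters among 10838 unassigned ones and 68842 clusters of every class, and they made up 28.8% of the 9755 clusters above bioB. The dorsal striatum of 24 male Sprague-Dawley rats was read, with 1 array per rat. The tissue was taken about a month into withdrawal, 1 day after the last test of lever pressing for drug cues. The 6 control rats (CT) pressed for saline and were never shocked. The 6 shock-resistant (SR) and the 6 shock-sensitive (SS) rats took methamphetamine (METH) by lever pressing and then received footshocks on part of their rewarded presses, and they were separated after the fact because SR rats kept up their intake and SS rats cut it. The 3 YSR and the 3 YSS rats were yoked to SR and SS rats, and received saline and the same shocks without control over them. The ages of the rats are not given in the sources used here, and all groups carried venous catheters.

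Retrotransposons are repeated DNA elements that spread through an RNA copy. LINE-1 elements encode an RNA-binding protein and a second protein with an endonuclease and a reverse transcriptase, and endogenous retroviruses carry genes for a Gag shell, a protease, a reverse transcriptase with its RNase H, and an integrase. Copies of both lie in introns and between genes, are transcribed in brain, and are so alike that a probe for one copy can bind RNA from many.

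The members were mostly short single-exon models with no gene name. AceView, a collection of gene models built from cDNA sequences, was the source of 2652 of the 2809 models, and it gives a made-up word as a name where nothing is known. Of the 2809 members, 281 were named after a LINE-1 protein domain and 31 after a retroviral one. A further 120 were described as similar to a gene or as its copy, and 12 carried a gene symbol that RefSeq lists. The other 2365 had no name of these kinds and bore a made-up word or another name, such as a ribosomal protein domain. Unspliced models numbered 2747, or 97.8%, against 77.5% of the 8029 unassigned clusters that did not pass bioB. The median length was 414 bases against 713 bases, and 7.80% of members lay on the X chromosome against 2.33%. No sequence is shown here for these clusters, which are known by name and position only.

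LINE-1 names gathered among the brightest clusters. DUF1725, a domain found in LINE-1 proteins, named 275 unassigned clusters, of which 267 were members. The other LINE-1 names were Exo_endo_phos, the endonuclease, with 6 members, Transposase_22, the RNA-binding protein, with 6, and RVT_1, the reverse transcriptase, with 2. The CT mean of the 281 had a median of 18.64, and 272 lay above 15. Signals of different probe sets are not amounts of RNA that can be compared, and the CT level chose the members, so these levels are given as a description.

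Retroviral names lay far lower. Gag_p30, the core shell protein of retroviruses, named 19 members among 20 unassigned clusters, with a median CT mean of 10.87. RnaseH, the enzyme that removes RNA from a reverse-transcribed hybrid, named 8, rve, the integrase core, named 2, and RVP, the protease, and Integrase named 1 each. None of the 31 had a CT mean above 15.

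Level divided the members into a low and a high group. A CT mean from 16 to under 20 was found for 1544 members, or 55.0%, against 3.64% of the 4969 coding clusters above bioB. Another 820 members lay under 12 and 445 from 12 to under 16. The brightest were skorbey on chromosome X at 149337950 to 149338639, slerky in Tmem161b, snarger in Gpm6a, snarbee and snozar, with CT means from 19.61 to 19.65, close to the highest signal in the table, which was 19.93. The last pair and slerky were all 414 bases long. At the threshold, LOC688503, jarvee and skarner lay just inside with CT means of 9.28, and LOC680346, smarwey and slartee just outside with 9.27.

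**Figure D1:**
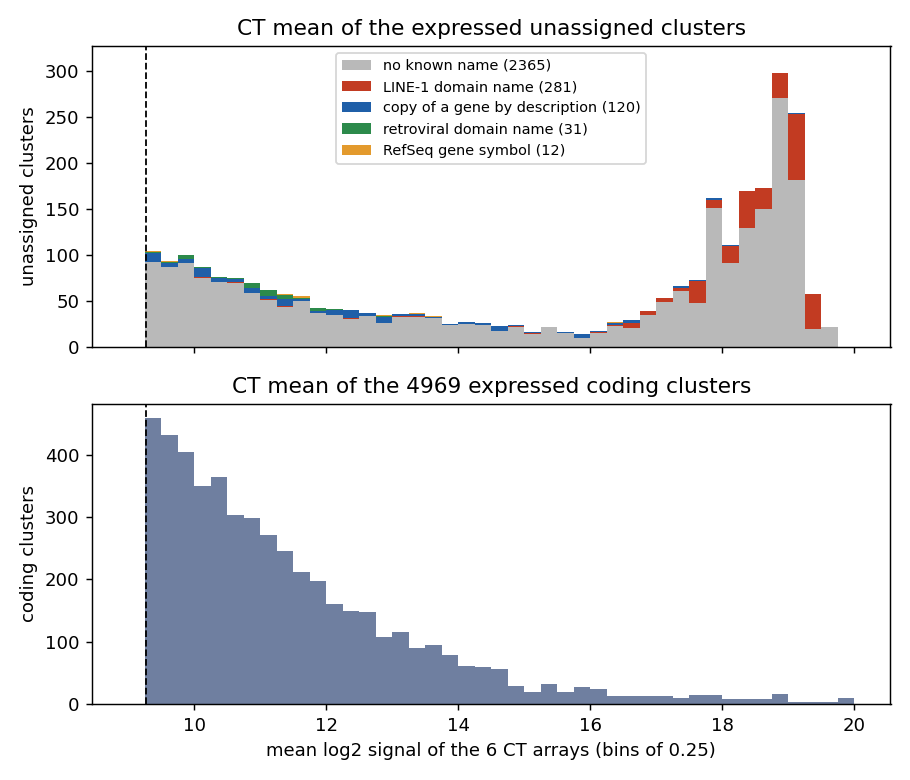
The mean log2 signal of the 6 CT arrays (horizontal axis, bins of 0.25) against the number of clusters, for the 2809 members stacked by kind of name (top) and for 4969 coding clusters (bottom); the dashed line is bioB at 9.27. Most members, and 272 of the 281 with a LINE-1 name, stand in a second peak that the coding clusters do not show.

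The same lengths came back many times among the members. A length of 325 bases was shared by 422 members on 20 chromosomes, 314 bases by 130 and 294 bases by 117, of which 116 bore a LINE-1 name. The 8 commonest lengths held 940 members, or 33.5%. Of the 422 with 325 bases, 212 lay on the plus strand and 13 unassigned clusters of that length were not members.

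Many members had the same signal on every array. Signals identical to those of another member on all 24 arrays were found for 540 members, in 85 sets, against 2.19% of the expressed clusters of other classes within their own class. The largest set held 49 members of 325 bases, all on the plus strand of 15 chromosomes, with a CT mean of 18.96 ± 0.17 (SD, n = 6). The next held 48 members of 325 bases, all on the minus strand, with a CT mean of 19.05 ± 0.16 (SD, n = 6). Each of the 10 largest sets kept to 1 strand. Members of such a set cannot be told apart on this array, and the 2809 members gave 2354 distinct signals.

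The low and the high members also differed in place. A member was set beside clusters with 1 gene symbol that were no longer than 2500000 bases. Of the 820 members under 12, 140 overlapped such a gene on the same strand, and 220 others lay within 10000 bases of one on that strand without overlapping any gene. Of the 1544 members at 16 or more, the numbers were 144 and 34, and 1144 (74.1%) had no gene within 10000 bases on either strand. Positions are those of the annotation, whose genome build is not named.

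Most members within 10000 bases past the end of a gene followed that gene from array to array. There were 422 members with an expressed same-strand gene that they overlapped or reached within 10000 bases, beside 344 different genes. Likeness was measured as Pearson's r over the same 24 arrays and is a description, with no genes elsewhere set beside it. For 222 members downstream of a gene the median r was 0.77, and 184 of them reached 0.5. For 180 members inside a gene the median was 0.21, and 51 reached 0.5. The 51 of these with a CT mean of 16 or more had a median r of -0.13, and the 99 under 12 had 0.42. Bright members also varied less, with a median SD over the arrays of 0.19 for all members at 16 or more and 0.33 under 12.

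**Figure D2:**
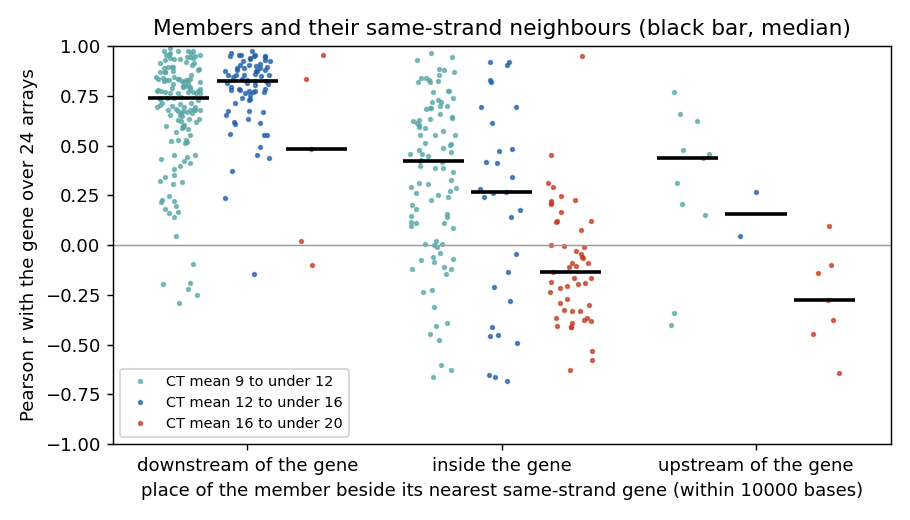
Pearson's r over 24 arrays between a member and its nearest expressed gene on the same strand (vertical axis), by the member's place and CT mean; each point is 1 of 422 members and the black bar is the median. Downstream members under 16 lie mostly above 0.5, whereas members of 16 or more inside a gene have a median of -0.13.

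The closest pair was sucher and Pde1a, a calcium-dependent phosphodiesterase of neurons. The cluster sucher (chr3:66801111-66803169, minus strand) starts 78 bases past Pde1a, and the 2 had an r of 0.99. Its log2 signal ran from 7.11 to 11.68 in CT (median 10.97), from 9.31 to 12.56 in SR (median 11.54) and from 9.44 to 12.70 in SS (median 11.27). The YSR arrays had 12.93, 9.56 and 9.22, and the YSS arrays 12.12, 12.72 and 12.52. All 3 YSS arrays lay above every CT array, where these groups did not overlap for 2.45% of all expressed clusters. In sucher, CT replicates 5 and 6 were the lowest of all 24. Its SD of 1.60 over the arrays was the largest of any member.

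Cortical neuron markers, like sucher, were lower on CT replicates 5 and 6 than in YSS, and their part in sucher was not tested. The mean of 13 cortical pyramidal neuron markers, of which 4 passed bioB in CT, was 7.89 and 7.45 in CT replicates 5 and 6. In the other CT arrays it was 8.95 to 9.64, and in YSS 9.52 to 9.84. Slc17a7, the vesicular glutamate transporter of these neurons, was 8.95 and 6.50 in CT replicates 5 and 6 and 12.6 to 13.3 in YSS. In such bulk tissue, fewer cells of a type and less RNA per cell cannot be told apart. Members most like sucher were dawnaw on chromosome 10 (r = 0.94) and swerjy on chromosome 15 (r = 0.91).

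Other named members also stood beside genes. The cluster sparwor (chr4:17314741-17315458), 1467 bases past Sema3e, a guidance protein gene, had an r of 0.95 with it. The cluster sneykly (chr1:240758930-240760598), 1347 bases past the cation channel gene Trpm3, had an r of 0.94. Inside genes, snarloy (chr11:12101356-12102200) had 0.86 with the guidance receptor gene Robo2, poyfaw (chr18:69937392-69938029) 0.82 with the kinase gene Mapk4, and veyfoy (chr17:23337554-23338068) 0.69 with the actin regulator gene Phactr1. The bright pair of slerky and snarger had -0.07 with Tmem161b and 0.00 with Gpm6a. Their SD over the arrays was 0.07, against 0.47 to 0.93 for the other members named here, which leaves little variation for an r to follow.

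All arrays carried striatal RNA, since Drd1 and Drd2, the dopamine receptor genes of its 2 projection neuron types, lay at 11.9 or higher throughout. Marker levels of neighbouring tissue differed between arrays. The mean of 15 choroid plexus markers, of which 2 passed bioB in CT, ran from 6.16 to 10.85 in CT, 5.77 to 9.57 in SR, 6.25 to 10.30 in SS, 6.46 to 11.16 in YSR and 5.87 to 8.27 in YSS. Oligodendrocyte markers ran from 11.98 in YSS replicate 2 to 14.29 in YSR replicate 2. Arrays correlated at 0.988 or more. The number of rats, 3 to 6 per group, limits the precision, and the labels do not say that replicates share anything.

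A tight set of members varied widely from array to array. They are called retrovirus-like for their profile alone, as no sequence was examined. The mean profile of the 31 retroviral names served as the reference, and 91 members had an r of at least 0.9 with it. The lowest of these had 0.96 and the next member outside had 0.81. All 19 Gag_p30 clusters and every other retroviral name but Integrase were among them, which makes 30, and 61 bore no such name. They lay on 18 chromosomes, gave 81 distinct signals and included 3 noncoding clusters besides when other classes were searched.

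Each of the 91 moved over several log2 units between rats. The range over 24 arrays was 3.01 to 4.63, and their median SD was 0.98 against 0.22 over all members. The median of the set per array ran from 9.22 to 12.45 in CT (median 11.33), from 9.80 to 11.24 in SR (median 10.16) and from 9.65 to 11.77 in SS (median 10.61). The YSR arrays had 11.32, 13.05 and 11.54, and the YSS arrays 10.37, 9.75 and 11.23. YSR replicate 2 was the highest array for 90 of the 91, and CT replicate 1 the lowest for 82. The control rats alone thus spanned a median range of 3.24, against 3.83 over all arrays. The Integrase cluster stayed between 8.75 and 10.09.

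Most retrovirus-like members were higher in YSR than in SR rats. In that comparison the study's criterion, a fold of 1.7 or more and an unadjusted p under 0.05, called 92 members lower and 4 higher in SR (3.42%), against 1.37% of all expressed clusters in either direction and 1.09% lower. Of the 91 in the set 90 were called, each lower in SR, with a median difference of -1.65 log2 units against -0.02 over all expressed clusters. The SR and YSR arrays did not overlap for 63 of the 91, where 2.6% of all expressed clusters did not overlap. In limma, none of the 2809 members had a Benjamini-Hochberg adjusted p under 0.05 over all expressed clusters, the smallest being 0.573. An unadjusted p under 0.05 was found for 186 members (6.62%), against 7.36% of all expressed clusters, or for 182 members without variance moderation. The 91 were chosen for a shared profile over these same arrays, so their calls and gaps are not separate observations. The set therefore has no test of its own.

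These calls rested on YSR replicate 2. Without it the number of calls was 4 instead of 96, and without any other single array it was 91 to 120. This array also had the highest choroid plexus list (11.16) and oligodendrocyte list (14.29). On YSS replicate 2, which had the lowest set median in YSS, the lists were 5.87 and 11.98. CT replicate 2, next highest in the set, had 6.44 and 13.98. On other arrays the lists and the set went apart. SR replicate 6 had 8.76 and 14.22 with a set median of 10.05. CT replicate 1, with the lowest set median of 9.22, had 6.66 and 13.43. The part of either tissue in the set was not tested.

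**Figure D3:**
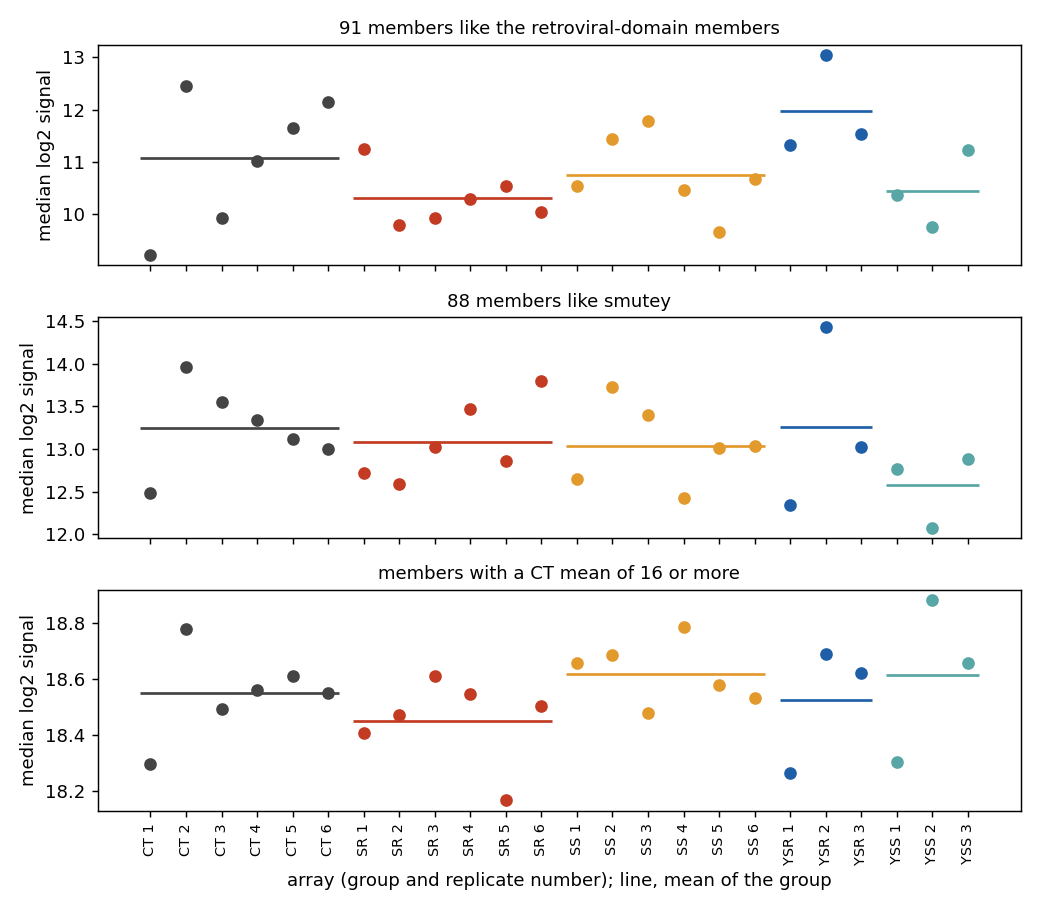
The median log2 signal of 3 sets of members on each of 24 arrays, coloured by group, with the mean of each group as a line. Retrovirus-like members (top) peak in YSR replicate 2 at 13.05 and spread widely within CT, the members like smutey (middle) peak there too at 14.43, and members of 16 or more (bottom) stay between 18.17 and 18.88.

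Gag_p30.13 (chr5:58139828-58140288, minus strand) fell the most. It is a 461-base cluster with an r of 0.99 to the retroviral profile. Its log2 signal was 8.57 to 10.08 in SR (median 8.96) and 10.41, 12.42 and 10.78 in YSR. Every SR array lay below every YSR array. The difference was -2.02 ± 0.65 (SE), with an exact two-sided permutation p of 0.0119, the smallest that 6 against 3 arrays can give, and an adjusted p of 0.573 in limma. It was named as the largest of many, and without YSR replicate 2 the difference was -1.41 and no longer called.

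In CT the same cluster ran from 8.36 to 11.59 (median 10.10), which covers all but 1 array of the other groups. The SS arrays lay between 8.43 and 10.58 (median 9.60), and the YSS arrays at 9.53, 8.38 and 10.25. The unnamed clusters glyvee (chr5:31196824-31197084) and beyku/dyku (chr14:59928052-59928626) followed it, with SR against YSR differences of -1.98 ± 0.67 and -1.88 ± 0.59 (SE) and the same exact p.

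The few members higher in SR than in YSR lay outside the set. The cluster lorty (chr7:140637681-140638236), inside the transcription factor gene Atf1, ran from 13.10 to 13.60 in SR (median 13.25) and had 11.38, 13.34 and 12.14 in YSR. YSR replicate 2 stood among the SR arrays and the other two below them. Atf1 itself lay below bioB, with 7.56 to 7.90 in SR and 7.71, 7.90 and 7.70 in YSR. The difference of lorty was 1.02 ± 0.41 (SE) with an exact p of 0.0595, and it was not called without YSR replicate 1 or 3 or with the replicate block. The cluster spawfy (chr18:29110729-29112120), opposite Pura, had 9.60 to 10.51 in SR and 8.53, 9.68 and 8.37 in YSR, a difference of 1.07 ± 0.39 (SE) with an exact p of 0.0238. Without YSR replicate 1 or 3 its call was lost as well.

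The 2 yoked groups differed in the same set of clusters. Against YSS, 75 members were called higher in YSR and 0 lower (2.67%), against 1.41% of all expressed clusters in either direction and 1.24% higher. The retrovirus-like set held 66 of the 75, with a median difference of 1.53 against -0.02 over all expressed clusters, and 62 of the 91 did not overlap between the groups, where 6.04% of all expressed clusters did not. In limma 0 members passed an adjusted p of 0.05, 112 an unadjusted one, against 4.66% of all expressed clusters, and 72 without moderation. Calls fell to 2 without YSR replicate 2, to 18 without YSS replicate 2 and to 20 without YSS replicate 1, and rose to 232 without YSR replicate 1. Both comparisons use the same YSR arrays, and the 91 share a profile by choice, so their counts are not separate observations.

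With 3 rats on each side no exact p can go below 0.1 here. Gag_p30.13 reached that value with a difference of 1.82 ± 0.75 (SE), and beyku/dyku with 1.83 ± 0.68 (SE). The calls of both were lost without YSR replicate 2 or YSS replicate 2. Outside the set, sneykly was 11.56, 12.24 and 10.94 in YSR and 10.87, 10.69 and 10.85 in YSS, a difference of 0.78 ± 0.34 (SE), where Trpm3 had 0.94. All 3 YSR arrays lay above YSS, and the call was lost under quantile normalization and without any 1 of the 6 arrays but YSR replicate 3. Trpm3 is strong in choroid plexus, whose list was 10.54, 11.16 and 6.46 in these YSR arrays, and the part of that tissue was not tested. The cluster kygla (chr1:84806562-84807036), opposite Marcksl1, had 9.81, 11.27 and 9.74 against 9.03, 9.64 and 9.82, and its difference of 0.77 ± 0.31 (SE) was not called without YSR replicate 2, where it was 0.28, or without YSS replicate 1, where it was 0.54.

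SR rats showed somewhat lower signals than SS rats in most members. Of the 2809, 2386 were lower in SR and 423 higher. The higher ones made up 15.1%, against 46.9% of the expressed clusters of other classes. The median difference was -0.15, against -0.05 over all expressed clusters, members included, and -0.01 in the other classes. It was not particular to this comparison, as 2446 members were lower in SR than in CT and 2391 lower than in YSR. All 281 LINE-1 members were lower in SR, with differences from -0.40 to -0.06 log2 units, and none was called in any of the 8 comparisons. The bright members move together, so their directions are not separate observations. In the 1544 members at 16 or more the array median ran from 18.17 in SR replicate 5 to 18.61 in SR, and from 18.48 to 18.78 in SS, and SR replicate 5 was the lowest of all 24 arrays for 898 of them. YSS replicate 2 was the highest for 744, CT replicate 2 for 474 and SS replicate 4 for 301.

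Only poyfaw and veyfoy met the study's criterion between SR and SS, where 0.0615% of all expressed clusters did. In limma 0 members had an adjusted p under 0.05 (smallest 0.786), 108 (3.84%) an unadjusted one, against 2.32% of all expressed clusters, and 105 without moderation. Of the 108, 104 were lower in SR. For poyfaw the signal was 7.62 to 9.45 in SR (median 8.91) and 9.10 or more in SS (median 9.57). The groups overlapped only through SR replicate 1, which lay above SS replicates 3 and 5. The difference was -0.84 ± 0.31 (SE), with an exact two-sided p of 0.00649 where 0.00216 is the smallest possible.

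The host gene of poyfaw, Mapk4, differed by -0.55 between the same groups. In the yoked rats poyfaw had 9.20, 10.06 and 9.57 in YSR and 9.02, 9.47 and 8.35 in YSS. The SR minus YSR difference less the SS minus YSS difference was -1.50, with an adjusted p of 0.958 in limma. It lay at the threshold of the rule with a CT mean of 9.29, and its call was lost without SR replicate 5, SS replicate 1 or SS replicate 4.

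The cluster veyfoy ran from 12.10 to 15.38 in SR (median 13.56) and from 14.21 to 15.91 in SS (median 14.64). SR replicate 5 was the lowest and SR replicate 3 lay among the higher SS arrays. Its host gene Phactr1 overlapped widely, with 14.47 to 15.67 in SR and 14.63 to 15.97 in SS. The difference of veyfoy was -1.05 ± 0.49 (SE), with an exact p of 0.0736. It was not called without SR replicate 1, 2, 5 or 6, without SS replicate 1, 4 or 5, without moderation or with the replicate number as a block. Over all members the calls were 0 without SR replicate 5, SS replicate 1 or SS replicate 4, 1 without SR replicate 2, 4 without SS replicate 3 or 6 and 5 without SR replicate 3.

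**Figure D4:**
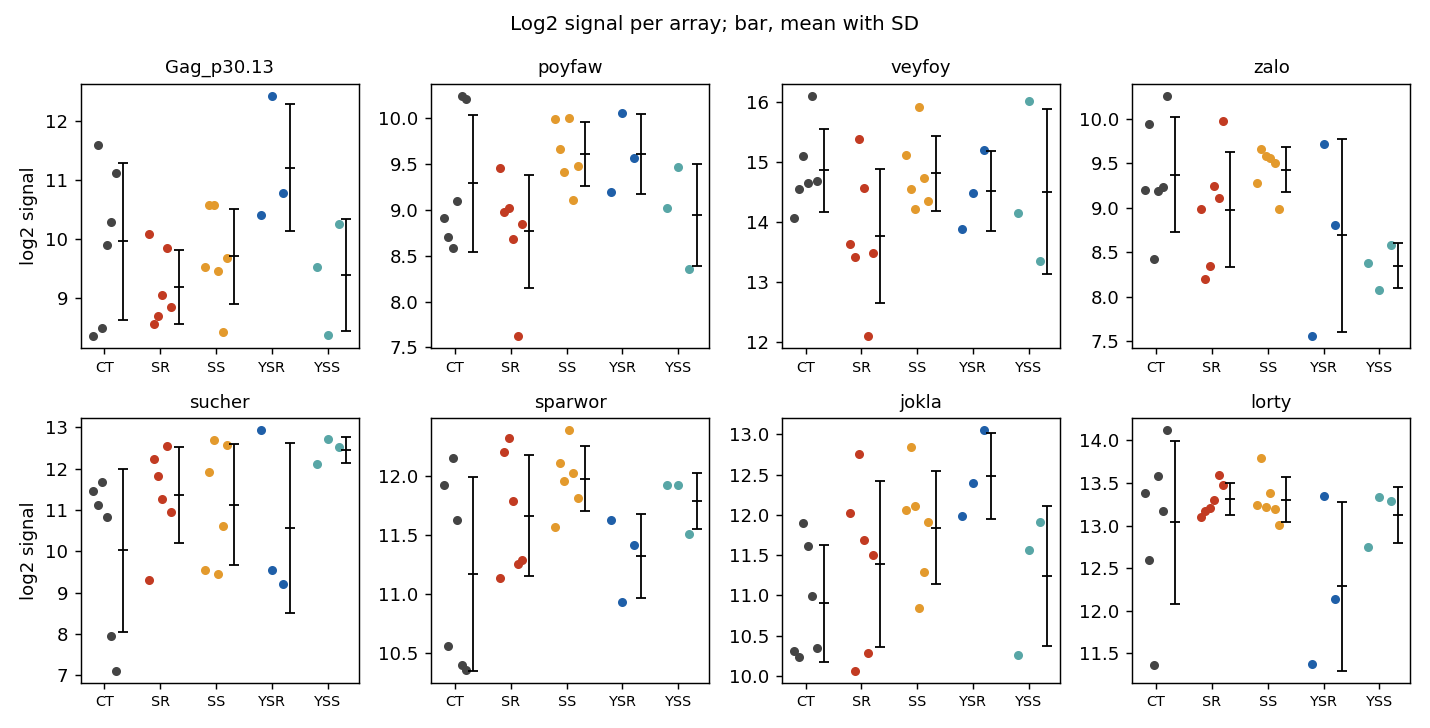
Log2 signal on each array of 8 named members (each point 1 rat, by group on the horizontal axis), with the group mean and SD beside the points. In Gag_p30.13 the SR arrays lie below the YSR arrays while CT spans 8.36 to 11.59, and in zalo the YSS arrays lie below every SS array.

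SS rats and their yoked partners differed in few members. The criterion called 1 member higher and 3 lower in SS, against 0.164% of all expressed clusters. In limma 0 had an adjusted p under 0.05, 21 an unadjusted one, against 1.85% of all expressed clusters, and 17 without moderation. The higher one was zalo (chr12:15968177-15969451), on the strand opposite Gna12, a G protein subunit gene. It ran from 8.98 to 9.66 in SS (median 9.53) and had 8.38, 8.08 and 8.58 in YSS, so the groups did not overlap. That held for 1.37% of all expressed clusters. The difference of zalo was 1.08 ± 0.40 (SE), with an exact p of 0.0119, the smallest possible. It was named for its call on these same arrays, so this p is no separate support. The call was lost without YSS replicate 2 and with the replicate block.

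The 3 lower ones shared 1 profile. These were bleefee (chr18:87131632-87132552), steysha (chr3:126791621-126792517) and glomu (chr11:60291097-60291701), which had no named gene within 10000 bases and r values from 0.98 to 0.99 with each other, while the next member reached 0.84. For bleefee the SS arrays ran from 7.50 to 9.93 (median 9.47) and the YSS arrays had 9.59, 11.02 and 9.80, with overlap. Its difference was -1.05 ± 0.42 (SE), with an exact p of 0.155. SS replicate 4 was the lowest of the 24 arrays in all 3 clusters and YSS replicate 2 the highest, and each call was lost without either. Of 14 alternatives, 2 ended the call of bleefee, 5 that of steysha and 7 that of glomu. The number of calls was 2 without SS replicate 1 or 4, 8 without YSS replicate 1 and 7 without YSS replicate 3.

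A test across the 4 groups that the rule did not use gave few members. An F test over SR, SS, YSR and YSS found an unadjusted p under 0.05 for 53 members (1.89%), against 2.9% of all expressed clusters, and 37 without moderation. None had an adjusted p under 0.05 in limma, the smallest being 0.864. This count was 575 without YSS replicate 1, 129 without CT replicate 1, 109 without YSR replicate 1, 87 without SR replicate 1 and 82 without CT replicate 2. It was 31 without YSR replicate 2, 30 without SR replicate 4 and 26 without SR replicate 5.

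The comparisons with CT are descriptions, since the CT level chose the members and the 4 comparisons share the CT arrays. SR against CT gave 2 members, both lower, where 0.226% of all expressed clusters were called. These were veyfoy, with a difference of -1.10 ± 0.49 (SE), and snarloy, which ran from 10.28 to 11.80 in CT (median 10.62) and from 8.32 to 10.67 in SR (median 9.89), with overlap. Of 17 alternatives, the call of veyfoy was lost in 6 and that of snarloy in 7. The number of calls was 97 without CT replicate 1, 23 without CT replicate 3, 10 without SR replicate 1, 6 without SR replicate 3, 1 without SR replicate 2 and 0 without CT replicate 5 or SR replicate 5 or 6.

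SS against CT gave 2 members, both higher, where 0.0308% of all expressed clusters were called. The cluster sparwor ran from 10.36 to 12.15 in CT (median 11.09) and from 11.57 to 12.38 in SS (median 11.99), with CT replicates 2, 5 and 6 the lowest. Its difference was 0.81 ± 0.29 (SE), and Sema3e had 0.54. The other was jokla (chr1:221191924-221192632), with 0.94 ± 0.44 (SE), whose call was lost in 10 of 17 alternatives, and that of sparwor in 4. No call was left without CT replicate 2 or 5, and 1 without CT replicate 1 or 6 or SS replicate 2, 3, 4 or 6.

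YSR against CT gave 3 members, all higher, where 0.205% of all expressed clusters were called. The arrays of these groups did not overlap for 0.625% of all expressed clusters. In jokla the YSR arrays had 11.99, 12.40 and 13.05, all above the CT arrays, which ran from 10.23 to 11.90 (median 10.67), a difference of 1.58 ± 0.54 (SE) that was not called without YSR replicate 3. The others were bleefee and steysha, with 0.96 ± 0.42 and 0.93 ± 0.43 (SE). The call of bleefee was lost in 3 of 14 alternatives and that of steysha in 7 of 14, both without CT replicate 2, YSR replicate 1 or YSR replicate 2. Calls rose to 29 without CT replicate 2, 16 without YSR replicate 3, 13 without CT replicate 6, 9 without CT replicate 3, 8 without YSR replicate 2 and 5 without CT replicate 1 or YSR replicate 1.

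YSS against CT gave 2 higher and 9 lower members, where 0.625% of all expressed clusters were called. The higher ones were sucher, with 2.43 ± 1.02 (SE) beside 2.11 for Pde1a, and barshey (chr2:21457046-21457893), 1071 bases past Rasgrf2, a Ras exchange factor gene. In barshey the YSS arrays had 11.34, 10.73 and 11.53 and the CT arrays 7.31 to 10.78 (median 9.54), a difference of 1.84 ± 0.81 (SE). Without CT replicate 5 or 6, or YSS replicate 3, the calls of both were lost, as they were with the replicate block, and each was lost in 5 of 14 alternatives. The lowest CT arrays of barshey were those 2, where the cortical list was 7.89 and 7.45 against 9.52 to 9.84 in YSS, its r with sucher was 0.86, and the part of cortical cells was not tested. The number of calls was 68 without CT replicate 1, 33 without YSS replicate 1, 27 without YSR replicate 2, 22 without YSR replicate 1, 21 without YSS replicate 3, 17 without SS replicate 4 and 5 without CT replicate 2.

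Of the 9 lower members, 6 belonged to a second group that moved together. Its reference was smutey (chr6:88062621-88063207), and 88 members, itself counted, had an r of at least 0.9 with it. None had a known name, none was in the retrovirus-like set, and their CT means ran from 9.89 to 14.91 on 20 chromosomes. In smutey the CT arrays ran from 12.83 to 14.42 (median 13.62) and the YSS arrays had 12.96, 12.17 and 13.08, with overlap, a difference of -0.90 ± 0.43 (SE). Its call was lost in 8 of 14 alternatives, among them the omission of CT replicate 2, 3, 4 or 5 or of YSS replicate 1 or 2, with -0.62 without YSS replicate 2.

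Because smutey was named for its call in YSS against CT, a low YSS signal was built into the 88 that follow it. Their median differed by -0.69 in YSS from CT, against 0.01 over all expressed clusters. YSR replicate 2 was the highest array for 86 of them and YSS replicate 2 the lowest for 57. The mean of the oligodendrocyte list, with all 10 measured genes above bioB, was 14.29 and 11.98 on these arrays. It ran from 13.27 to 13.98 in CT, 12.63 to 14.22 in SR, 13.06 to 14.09 in SS, 13.26 to 14.29 in YSR and 11.98 to 13.69 in YSS, and its part in the set was not tested. On some arrays the list and the set went apart, as in YSS replicate 1, with a list mean of 13.69 and a set median of 12.77.

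Members that resemble known genes had an SD over the arrays like that of the rest, with a median of 0.24 for the 12 with a gene symbol and 0.21 for the 120 copies by description, against 0.21 over all expressed clusters. No call fell on the 12, a number too small for shares of 0.0308% to 1.41% per comparison to show anything. The largest difference among them was -0.64 log2 units in YSR against YSS, for a 1075-base cluster with the symbol of Ak1, an adenylate kinase gene. The cluster with the symbol of Qki, an RNA-binding protein gene of myelinating cells, had a CT mean of 16.27 and differed by 0.63 there. Of the 120 copies by description, 33 were of ribosomal proteins, 9 of heat shock proteins, 6 of the glycolytic enzyme GAPDH and 6 of high mobility group proteins. A single one, the ribosomal protein copy LOC684962, was called, with 8.80 ± 0.52 in SR (SD, n = 6) against 9.95 ± 0.69 in YSR (SD, n = 3), and it belonged to the retrovirus-like set.

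The member with the next largest SD after sucher followed no other. The cluster keyjar (chr15:40668198-40668953) had an SD of 1.40, and the highest r of any other member with it was 0.45. It ran from 7.57 to 11.39 in CT (median 10.14), from 8.11 to 11.79 in SR (median 11.36) and from 7.97 to 10.47 in SS (median 10.16). The YSR arrays had 8.12, 7.81 and 10.08, and the YSS arrays 10.54, 9.86 and 10.15. Low arrays near 8 occurred in every group but YSS, and it was called in no comparison.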

How the data were processed

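RNA from the dorsal striatum of 24 rats was hybridized to Affymetrix rat transcriptome arrays, 1 rat per array. The deposited values are log2 signals, which the authors computed with Expression Console; its version and summarization method are not given in the sources used here, and the values were taken without further normalization. Other deposited columns used give the annotation group, the names, the positions and the number of probes. Columns with the authors' own fold changes and p-values were not used. Of 70580 rows, 1738 control rows were left out, and array medians lay between 5.11 and 5.32.

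The members and the lists were chosen with earlier results of these data known. All 9755 clusters above bioB were fitted in limma 3.58.1 (R 4.3.3) with a mean for each of the 5 groups, with Benjamini-Hochberg adjustment over all of them. A cluster was called at an unadjusted p under 0.05 with a fold of at least 1.7, as in the study. Single members were also tested by exact permutation of the arrays, two-sided, except against CT. Where a member was named for its call, this used the arrays that named it and is no separate support. Members were named by a rule: the 2 highest and 2 lowest called in each comparison, the 5 brightest, the 5 with the largest SD, and the 3 nearest to the threshold on each side. The retrovirus-like set, the set like smutey and LOC684962 were singled out after values were seen. The labels do not say that replicate numbers pair the rats, nor which METH rat each yoked rat belonged to. Genes within 10000 bases came from 16753 clusters with 1 gene symbol, and those over 2500000 bases were left out. Positions are those of the array annotation, whose build is not named, since 34 of 25217 clusters with an Rnor_5.0 position in their description had the same start there. Other steps used Python 3.11.15, pandas 2.3.3, numpy 2.4.6 and the data.table package (version 1.17.8), and plots with matplotlib 3.10.9. The fit was tested on simulated data. The alternatives covered normalization, threshold, fold limit, moderation, fitted groups, a replicate block and the omission of each array.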

Additional observations from a re-analysis of the deposited data

Results flagged for a closer look

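Among 108 groups of 6 arrays checked, 10 had an array that stood apart from the rest, and chance flags about 1 in 20 such groups. CT replicate 1 was low for 4 of the brightest members: 19.41 for slerky, 19.48 for snarger, 19.40 for snarbee and 19.41 for snozar, where the other CT arrays lay between 19.62 and 19.74. These signals follow one another and lie near the top of the scale. SS replicate 1 had 19.72 for slerky against 19.62 to 19.64 in the other SS arrays, and SR replicate 5 had 19.28 for skorbey against 19.54 to 19.65. CT replicate 5 was high for snarloy, with 11.80 against 10.28 to 10.75, and for smarwey, just outside the threshold, with 10.05 against 9.02 to 9.30. SR replicate 1 had 10.45 for glomu against 9.28 to 9.72, and 8.92 for jarvee against 9.45 to 9.76. The cause of none of these was tested.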

How the results depend on the processing

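No named difference changed direction under the alternatives run. Leaving out 1 array at a time gave 2787 to 2847 members, 26 to 575 members in the F test, and 0 to 97 calls in SR vs CT, 0 to 3 in SS vs CT, 0 to 5 in SR vs SS, 3 to 29 in YSR vs CT, 5 to 68 in YSS vs CT, 2 to 232 in YSR vs YSS, 4 to 120 in SR vs YSR and 2 to 8 in SS vs YSS. Quantile normalization gave 1 call in SS vs CT and 187 in the F test, and median centring 5 in YSR vs CT and 19 in YSS vs CT. A filter on the mean of all arrays gave 1 in SR vs SS, 9 in YSR vs CT and 13 in SS vs YSS. A threshold 1 log2 unit higher left 2418 members, with 1 call in SR vs SS, 1 in YSR vs CT, 7 in YSS vs CT, 0 in SS vs YSS and 31 in the F test. A threshold 1 unit lower gave 3316 members, with 4, 13, 22, 18 and 89. Fitting only the groups compared gave 32 in YSS vs CT and 1 in SS vs YSS. Without moderation there were 1 in SR vs CT, SS vs CT and SR vs SS, 7 in YSS vs CT, 48 in YSR vs YSS and 2 in SS vs YSS. A fold limit of 1.5 gave 4 in SR vs CT and 32 in YSS vs CT, and one of 2 gave 0 in SS vs CT, 1 in SR vs SS and YSR vs CT, 3 in YSS vs CT and 2 in SS vs YSS. Deviations of same-numbered rats had r from -0.69 to 0.64 (39 pairs, median -0.11), with 12 pairs above 0.1. The replicate block gave 1 call in SR vs CT, SR vs SS and SS vs YSS, 46 in YSR vs YSS and 132 in the F test. Of 2 alternatives added after seeing the data, leaving out the retrovirus-like members left 9 calls in YSR vs YSS and 6 in SR vs YSR, and counting identical signals once gave 65 and 86. The causes were not tested.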
